A study of Mus musculus with 2 samples.

Results

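The genes described here were 5 transcripts that glucocorticoids induce (Fkbp5, Tsc22d3, Zbtb16, Sgk1 and Klf9) and the metallothionein pair Mt1 and Mt2. They were taken by gene symbol, and the 7 symbols were all found once among the 32285 features of the count tables. Whole-transcriptome Visium profiles were made from frozen mouse lung, 1 section per condition. The metastatic section came from a female BALB/c mouse, in a model that inoculates animals 6 to 8 weeks old, which received 1000000 4T1 cells orthotopically into the mammary fat pad and whose lungs were taken after 21 to 23 days. 4T1 is a mammary carcinoma line of the BALB/c strain that grows in the fat pad and spreads from there to the lung by itself. The control section was a lung without treatment from a mouse whose age is not given in the sources used here, so condition, animal and slide area cannot be told apart. The question was whether these genes were raised together in lung far from the metastasis over control lung. Their level in tumour spots was also described. Whether a systemic stress response lay behind any difference was not tested.

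Corticosterone, the glucocorticoid of mice, enters cells and binds the glucocorticoid receptor (Nr3c1), which is held ready by the HSP90 chaperones and then moves to the nucleus. There it binds an inverted repeat in DNA, the glucocorticoid response element, and raises a set of genes that many tissues share. Metallothioneins are small cysteine-rich proteins that hold zinc and copper, and the zinc-sensing factor MTF-1 drives their genes through metal response elements. Inflammatory cytokines, oxidative stress and glucocorticoids raise them as well.

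A Visium spot is a small area of tissue that holds several cells, and spots of a section are not replicates of a condition. Levels are therefore given as counts pooled over spots per 10000 counts (CP10k), with 95% exact Poisson intervals that cover counting error only, and no test between sections was possible. A gene was counted as apart at a ratio of at least 1.5 in either direction with at least 50 counts in both groups together. The control section held 1888 spots and 20329126 counts (median 9643.5 per spot), and the metastatic section 1110 spots and 14657881 counts (median 11334.5). In the metastatic section, 99 spots made up the metastasis core, 86 spots lay within 200 µm of it (the margin), 138 lay beyond that up to 500 µm, 783 lay farther away (far lung), and 4 scattered spots were set aside. The core was chosen as the cluster of spots highest on 4T1 tumour and proliferation genes. It stood above far lung for Hmga2 (24.4-fold, 31 against 7 counts), Top2a (18.1-fold) and Mki67 (12.5-fold). These genes were used in the choice, so their height in the core is no separate evidence for the label. Top2a and Mki67 were nearly as high in the margin, at 16.6-fold and 11.8-fold far lung. Krt8 and Krt18 were on the first tumour list but were left out after marker values were seen, so they are no separate evidence either. They were 1.66-fold and 1.91-fold higher in the core, where 34.6% of 11597 genes were at least 1.5-fold above far lung. Krt7, Krt19, Epcam and Cldn7 were lower there, Cldn4 and Pthlh had no count, and the macrophage and monocyte list was 3.64-fold higher, so several epithelial markers of the tumour went against the label and the area is called the core by its rule. Both sections shared 858 spot barcodes, which mark array positions. The control section alone held a cardiac-type muscle area of 160 spots. The airway secretory transcript Scgb1a1 took 15.2% of counts in the control section and 23.4% in far lung.

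Because the members are targets of the metal and the glucocorticoid pathways, promoter windows of 3 members, searched for the response elements of both pathways, are shown first. The RefSeq table (GRCm38.p6) gave 13 windows for 6 members and none for Zbtb16, each running from 250 bases before to 50 bases after an annotated start. Of the 3 shown, 280 bases are printed, 5′ to 3′ on the gene's strand. Capitals mark the metal response element core, searched as TGCACNC or TGCGCNC on both strands, in Mt1 and Mt2, and the full glucocorticoid response element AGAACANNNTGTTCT in Sgk1.
Mt2, chr8:94172368-94172647, plus strand: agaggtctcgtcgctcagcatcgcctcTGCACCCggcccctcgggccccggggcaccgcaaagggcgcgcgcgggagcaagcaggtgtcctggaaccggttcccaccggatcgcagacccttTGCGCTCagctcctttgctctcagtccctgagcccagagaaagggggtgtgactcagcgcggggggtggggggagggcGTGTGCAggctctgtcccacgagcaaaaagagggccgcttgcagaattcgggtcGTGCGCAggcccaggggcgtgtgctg
Mt1, chr8:94178839-94179118, plus strand: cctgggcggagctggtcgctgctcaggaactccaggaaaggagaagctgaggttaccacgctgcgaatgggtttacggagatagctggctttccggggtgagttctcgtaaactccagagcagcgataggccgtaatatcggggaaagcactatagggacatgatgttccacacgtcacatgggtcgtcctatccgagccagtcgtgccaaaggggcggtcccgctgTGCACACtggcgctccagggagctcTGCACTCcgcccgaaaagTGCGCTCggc
Sgk1, chr10:21993640-21993919, plus strand: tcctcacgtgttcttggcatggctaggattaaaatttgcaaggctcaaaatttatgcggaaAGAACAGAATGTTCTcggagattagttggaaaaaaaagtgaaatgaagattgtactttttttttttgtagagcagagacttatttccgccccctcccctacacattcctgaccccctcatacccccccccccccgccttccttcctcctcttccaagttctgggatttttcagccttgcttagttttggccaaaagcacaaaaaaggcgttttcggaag

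The Mt2 window held 4 metal response element cores and the Mt1 window 3. Of 32851 windows of this length, 25.7% held at least 1 core, 1.97% held at least 3 and 0.517% held at least 4. No core was found in the windows of Fkbp5, Tsc22d3 or Klf9, and 1 of the 6 Sgk1 windows held one. The full glucocorticoid response element, with no mismatch, was in 1 Sgk1 window, where it began 189 bases before the start. It was in 3 of the 32851 windows, or 0.00913%. The shorter half-site AGAACA, which the full element contains, was in 3 of 6 Sgk1 windows, 1 of 3 Tsc22d3 windows and 19.0% of all windows. Mt2 and Mt1 are neighbours on chromosome 8, with 5315 bases between the end of Mt2 (94172618 to 94173567) and the start of Mt1 (94178883 to 94180327).

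At the 1.5-fold limit the genes were not raised as a set in far lung, although all 6 with enough counts ranked above the median gene. Of 6 members with enough counts, 2 were at least 1.5-fold higher than in control lung (Fkbp5 and Mt2) and 0 lower, against 2.65% of 13454 genes higher and 12.2% lower. The median of all these genes was 0.883, so a ratio of 1 already lay above most genes. The share of genes with a lower ratio was 99.0% for Fkbp5, 98.9% for Mt2 and 92.6% for Tsc22d3. It was 82.9% for Klf9, 71.8% for Mt1 and 68.4% for Sgk1. Summed, the glucocorticoid-induced members stood at 4.73 CP10k in control lung and 5.42 in far lung, a ratio of 1.15 (1.11 to 1.18), and the metallothioneins at 1.93 and 2.05, a ratio of 1.06 (1.01 to 1.12). In spots, fewer cells of a type and less RNA per cell cannot be told apart, which holds for every value that follows.

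Fkbp5 encodes a co-chaperone that joins the glucocorticoid receptor complex and lowers the receptor's affinity for hormone. Its level was 0.0915 CP10k in control lung (0.0788 to 0.106, 186 counts) and 0.180 in far lung (0.155 to 0.208, 179 counts). The ratio was 1.97 (1.59 to 2.43). Tsc22d3 encodes GILZ, an anti-inflammatory mediator of glucocorticoid action, and had the most counts of the hormone-induced group. It measured 2.46 CP10k (2.39 to 2.53) in control lung and 3.04 (2.93 to 3.15) in far lung, a ratio of 1.23 (1.18 to 1.29). This ratio stayed below 1.5.

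Sgk1, a kinase that acts on ion channels and sodium transport, measured 1.39 CP10k in control lung and 1.35 in far lung. Its ratio of 0.972 had an interval (0.910 to 1.04) that held 1. Klf9, a zinc finger repressor, measured 0.787 and 0.846 CP10k, with a ratio of 1.08 (0.988 to 1.17). Both intervals held 1, and neither bound reached 1.5. Zbtb16, the transcription factor PLZF, had few counts, with 6 counts in control lung and 11 in far lung, too few for the 50-count limit.

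The metallothioneins differed from each other. Mt1 was level, with 1.78 CP10k (1.72 to 1.84, 3617 counts) in control lung and 1.76 (1.68 to 1.85, 1756 counts) in far lung, a ratio of 0.992 (0.936 to 1.05). Mt2 measured 0.146 CP10k (0.130 to 0.164, 297 counts) in control lung and 0.283 (0.251 to 0.318, 282 counts) in far lung, a ratio of 1.94 (1.64 to 2.29).

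**Figure D1:**
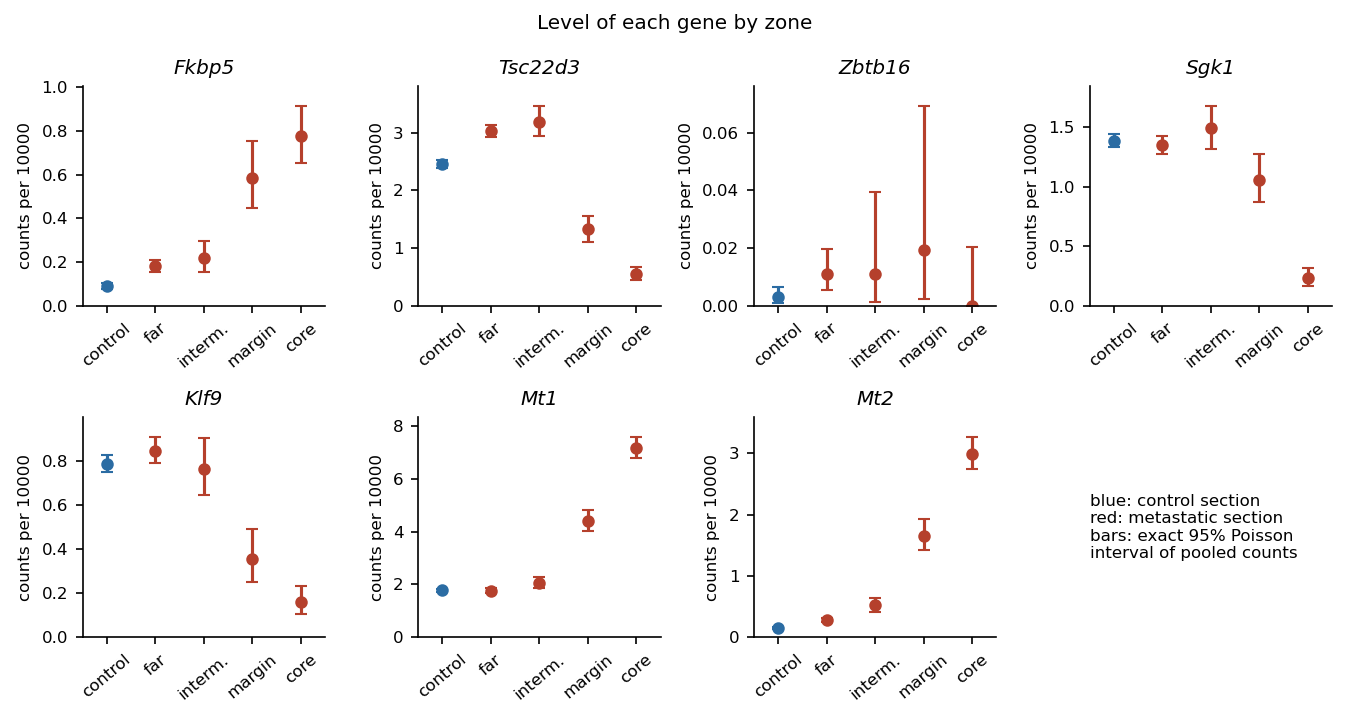
Pooled level of each of the 7 genes in control lung and in the zones of the metastatic section (y axis, counts per 10000; bars are 95% Poisson intervals that cover counting error only, 1 section per condition). Fkbp5, Mt1 and Mt2 were highest in the core, at 0.774, 7.17 and 3.0, where Tsc22d3, Sgk1 and Klf9 were lowest, at 0.553, 0.232 and 0.160.

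To see how far 1 area could set these values, both lungs were divided into blocks of 1 mm with at least 20 spots, 24 in control lung and 10 in far lung. Blocks of 1 section share the animal and the library, so they show spread within a section only. The control blocks reached down to 25643 counts and the far blocks only to 273401, so the ends of the control range are less certain. Fkbp5 ranged from 0 to 0.171 CP10k (median 0.0934) over control blocks and from 0.0505 to 0.303 (median 0.173) over far blocks, and 5 of 10 far blocks were above every control block. Mt2 ranged from 0 to 0.336 (median 0.0969) in control and from 0.0673 to 0.578 (median 0.227) in far lung, with 3 far blocks above every control block. The ranges overlapped for both genes, although 9 of the 10 far blocks lay above the control median for each.

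Tsc22d3 blocks spread from 1.59 to 4.03 in control lung and from 1.61 to 4.57 in far lung, and 1 far block was above all control blocks. Among the 19 control blocks at least as deep as the shallowest far block, the highest Tsc22d3 level was 3.43, and 4 far blocks were above it. Mt1 blocks spread from 0 to 4.29 in control lung (median 1.18), or from 0.669 in the 19 deeper control blocks, and from 1.44 to 2.40 in far lung (median 1.57), so no far block was above the highest control block while all 10 were above the control median. For Sgk1 and Klf9 no far block passed the highest control block, and 4 and 7 of 10 lay above the control median. Among the 19 deeper control blocks this stayed so for Sgk1, while 2 far blocks passed the highest control block for Klf9.

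**Figure D2:**
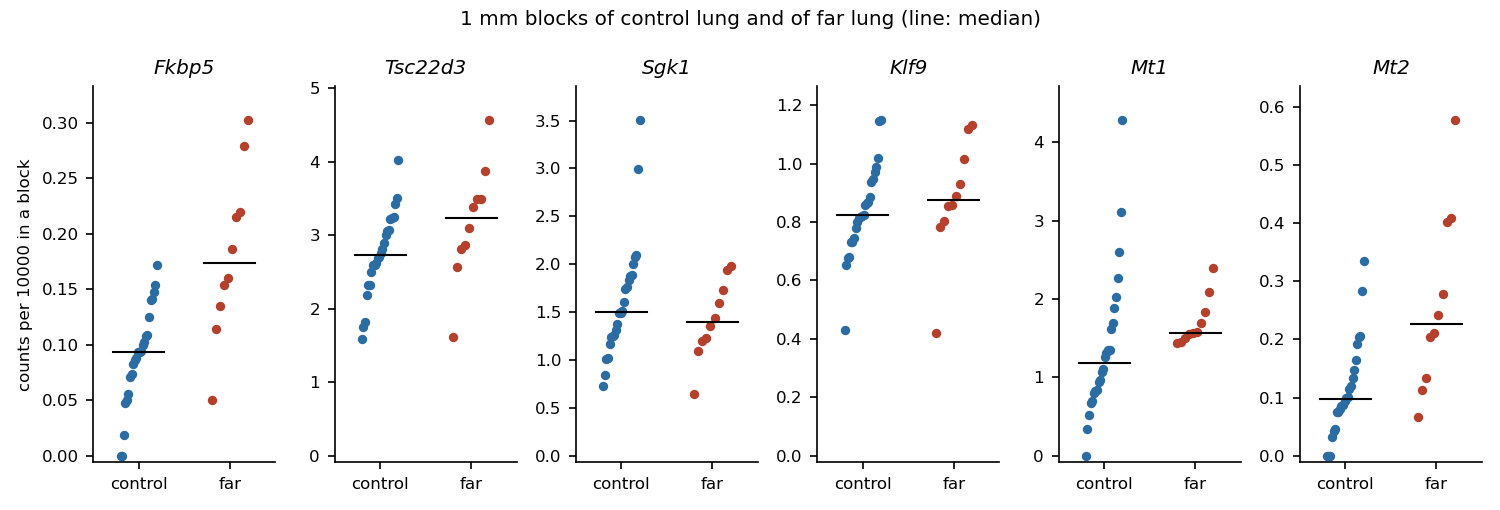
Level of each gene with enough counts (y axis, counts per 10000) in blocks of 1 mm of control lung (24 blocks) and of far lung (10 blocks); each point is 1 block, lines are medians, and blocks of a section are not replicates. Far blocks sat higher than the control median in 9 of 10 cases for Fkbp5 and Mt2, while for Sgk1 and Klf9 no far block passed the highest control block.

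Glucocorticoid targets outside the 7 were then counted. Of 24 further glucocorticoid-induced genes tested in far over control lung, 3 were at least 1.5-fold higher and 4 lower, against 2.65% and 12.2% of all genes. Their median ratio was 0.985, against 0.883 for all genes, and their summed ratio was 0.945. Hif3a (1.83), Lcn2 (1.75) and Map3k6 (1.62) were higher, of which Lcn2 is also an acute phase gene. Per1 (0.596), a clock component, and Ddit4 (0.651), an inhibitor of mTORC1, were lower. Both are classical early targets of the receptor, and the part of the hormone in their values was not tested. None of the 11 receptor pathway genes tested was apart, and the receptor itself, Nr3c1, had a ratio of 1.03 (0.942 to 1.13). Hsd11b1, which regenerates active hormone in tissue, had a ratio of 0.991.

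Among 17 genes of zinc and metal handling, Slc40a1, the iron exporter ferroportin, was higher (2.35) and Mt3 lower (0.155, 6 against 79 counts). Of the 79 Mt3 counts, 42 lay in the cardiac-type muscle area and 18 in smooth muscle spots, and alveolar spots held 0.00730 CP10k in control and 0.00736 in far lung. Mtf1, the factor that binds metal response elements, had a ratio of 0.884. The clock's evening arm, whose phase glucocorticoids help to set, had 3 of 8 genes lower and none higher, against 12.2% and 2.65% of all genes. Its summed ratio was 0.728, with Dbp at 0.568. The hour at which each lung was taken is not given in the sources used here. The neutrophil list was 10.3-fold higher in far lung, with 8 of 9 genes apart, and the macrophage and monocyte list was 1.58-fold higher, with 6 of 10 apart. Their part in the Fkbp5, Tsc22d3 and Mt2 values, like that of the clock, was not tested.

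Compared within tissue structures, the metallothioneins took opposite directions. Spots were assigned to airway, smooth muscle, cardiac-type muscle, B cell or mesothelial structures by marker lists and the others were called alveolar, which left 1121 alveolar and 134 airway spots in control lung and 643 and 98 in far lung. Smooth muscle spots numbered 142 in control and 11 in far lung, and B cell spots 198 and 10. The alveolar classes were not matched in airway transcript. Scgb1a1 took 6.31% of counts in control and 11.6% in far alveolar spots, and its part in the ratios was not tested. In alveolar spots Fkbp5, Mt1 and Mt2 were at least 1.5-fold higher and no member lower, against 3.89% of 12395 genes higher and 8.2% lower. In airway spots, of 5 members with enough counts, Tsc22d3, Sgk1 and Klf9 were at least 1.5-fold higher and Mt1 and Mt2 lower, against 11.6% of 7974 genes higher and 7.56% lower.

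Alveolar Mt1 measured 0.947 CP10k in control lung and 1.54 in far lung, a ratio of 1.63 (1.49 to 1.78). Alveolar Mt2 measured 0.0885 and 0.318, a ratio of 3.59 (2.81 to 4.61), and alveolar Fkbp5 0.0977 and 0.213, a ratio of 2.19 (1.69 to 2.83). These were the 3 members that were also highest in the core. Tsc22d3 was 2.89 and 3.78 (ratio 1.31, 1.24 to 1.38), and Klf9 0.924 and 1.04 (1.13, 1.02 to 1.24). Sgk1 was 1.77 and 1.73, with a ratio of 0.973 and an interval of 0.904 to 1.05. With a stricter limit for the structure classes (z over 2), which leaves more airway and muscle in the alveolar class, the Mt1 ratio was 1.12 and the Mt2 ratio 1.99.

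Mt1 differed between the structures of the control section. In control lung, airway spots held 3.80 CP10k of Mt1, 4.01-fold (3.69 to 4.35) the alveolar level, smooth muscle spots 3.73, cardiac-type spots 2.79, mesothelial spots 1.13 and B cell spots 0.773. Far airway spots held 2.19, a ratio to control airway of 0.578 (0.523 to 0.637), and Mt2 was 0.306 in control and 0.111 in far airway, a ratio of 0.362 (0.233 to 0.548). The airway-over-alveolar difference of Mt1 was thus 1.42-fold in far lung, and Mt2 was lower in airway than in alveolar spots there (0.349-fold) but higher in control (3.46-fold). The medians of all genes in these comparisons were 0.502 in far lung, where 21.9% of genes lay below Mt2, and 0.425 in control lung.

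In airway spots of control lung, Tsc22d3 was at 0.267 of the alveolar level, Klf9 at 0.206 and Sgk1 at 0.159. Scgb1a1 took 56.2% of counts in these spots and 6.31% in alveolar spots, and the median of all genes was itself at 0.425, with 21.4% of genes below Tsc22d3. Far airway spots over control airway spots gave 1.52 for Tsc22d3 (1.29 to 1.80), 1.52 for Sgk1 (1.15 to 2.01) and 1.79 for Klf9 (1.29 to 2.50). At the stricter limit (z over 2) the Tsc22d3 and Sgk1 ratios turned to 0.537 and 0.448. The endothelial list was 1.83-fold higher in far airway spots than in control airway spots and the neutrophil list 8.90-fold, and their part was not tested.

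The airway values leaned on 1 airway. Of the 1276 Mt1 counts in control airway spots, 848 came from 1 group of 58 touching spots with 4.72 CP10k. Without it, the ratios of far over control airway were 0.802 for Mt1, 0.511 for Mt2, 1.11 for Tsc22d3, 1.34 for Sgk1 and 1.48 for Klf9, so Mt2 alone was still at least 1.5-fold apart. Over 6 airways with at least 5 touching spots in each lung, Mt1 ran from 1.79 to 4.72 (median 2.75) in control and from 1.69 to 3.06 (median 2.30) in far lung. Mt2 ran from 0.0950 to 0.662 (median 0.346) in control and from 0 to 0.287 (median 0.0748) in far lung, and the medians were 1.40 and 0.984 for Tsc22d3 and 0.497 and 0.401 for Sgk1, both lower in far lung. The ranges overlapped for all of these genes.

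**Figure D3:**
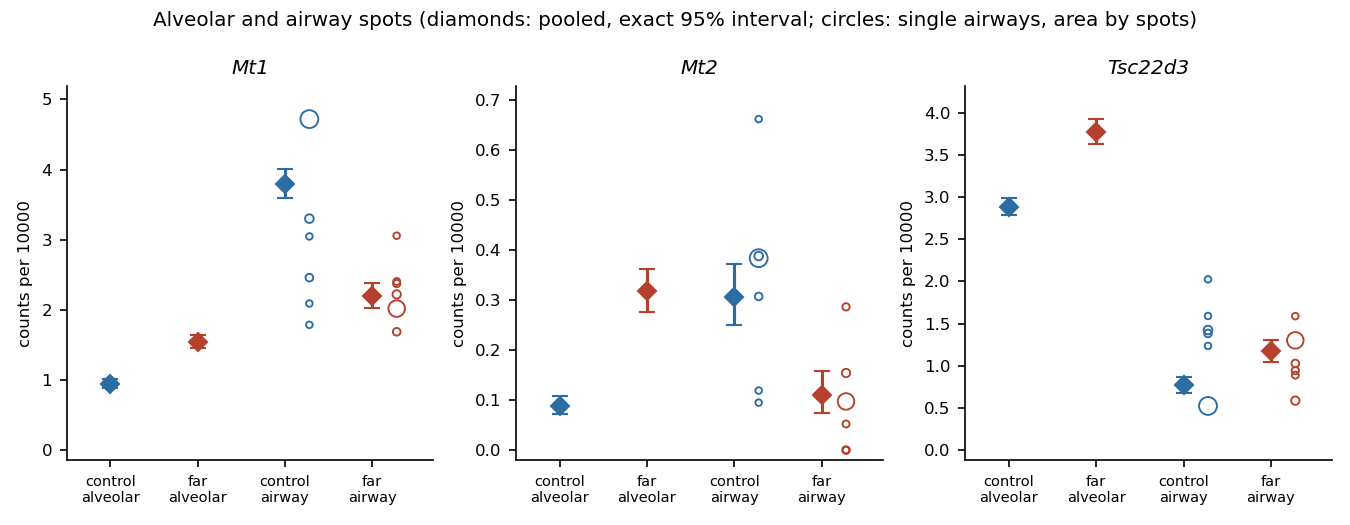
Levels (y axis, counts per 10000) of Mt1, Mt2 and Tsc22d3 in alveolar and airway spots of control (blue) and far lung (red), 1 section each; diamonds are pooled spots with 95% Poisson intervals for counting error, and circles are single airways with area by number of spots. Mt1 stood at 0.947 and 1.54 in alveolar spots of control and far lung, and at 3.80 and 2.19 in airway spots.

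Alveolar spots were next split into tertiles by their level of the macrophage and monocyte list. In far lung Mt1 measured 1.14, 1.3 and 2.11 CP10k from the lowest to the highest tertile, and Mt2 0.168, 0.233 and 0.527, while the list itself measured 1.92, 4.96 and 11.3. In control lung the same split gave 0.938, 0.910 and 1.00 for Mt1, where the list measured 0.956, 2.82 and 6.65. In far lung both genes were highest where the list was highest, and the part of macrophages in the difference between the lungs was not tested. Fkbp5 measured 0.139, 0.246 and 0.245 over the far tertiles and 0.0787, 0.0890 and 0.126 over the control tertiles.

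Split by the neutrophil list, which measured 14.2, 27.0 and 59.8 over the far tertiles, the levels in far lung were 1.83, 1.48 and 1.33 for Mt1 and 0.221, 0.180 and 0.239 for Fkbp5. Mt1 was thus lowest where neutrophil transcripts were most abundant. The Fkbp5 intervals overlapped (0.164 to 0.292, 0.129 to 0.244 and 0.180 to 0.311). Split by the endothelial list, Tsc22d3 measured 2.94, 3.86 and 4.5 in far lung and 2.30, 3.17 and 3.30 in control lung, and Sgk1 1.22, 1.69 and 2.24 in far lung. Mt1 ran the other way, with 2.08, 1.57 and 1.01. Tertiles share their spots' total counts, so these are descriptions.

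Around the metastasis the family divided by gene. In the margin, Fkbp5, Mt1 and Mt2 were at least 1.5-fold above far lung and Tsc22d3 and Klf9 below it, against 39.2% of 11425 genes higher and 15.4% lower. In the core the same 3 were higher and Tsc22d3, Sgk1 and Klf9 lower, against 34.6% of 11597 genes higher and 26% lower. With shares of this size in all genes, the number of members apart is no result about the members, and their sizes are given instead.

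Mt2 measured 0.518 CP10k between 200 and 500 µm, 1.66 in the margin (1.42 to 1.93, 173 counts) and 3.0 in the core (2.75 to 3.26, 542 counts), which is 10.6-fold (9.14 to 12.3) far lung and 20.5-fold control lung. Mt1 measured 2.05, 4.40 (4.01 to 4.83) and 7.17 (6.78 to 7.57), the core being 4.06-fold (3.78 to 4.37) far lung. With 1296 and 542 counts in 99 spots, Mt1 and Mt2 were the deepest measured of these core values. Fkbp5 measured 0.218, 0.585 (0.448 to 0.752) and 0.774 (0.651 to 0.914), the core being 4.30-fold (3.43 to 5.40) far lung. Its core over margin ratio was 1.32, with an interval (0.973 to 1.82) that held 1, whereas those of Mt1 and Mt2 were 1.63 and 1.81.

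Tsc22d3 fell from 3.20 CP10k between 200 and 500 µm to 1.32 in the margin (1.11 to 1.56) and 0.553 in the core (0.450 to 0.673, 100 counts), and the core was 0.182 of far lung (0.148 to 0.222). Sgk1 was still 1.06 in the margin, or 0.783 of far lung (0.638 to 0.951), and 0.232 in the core, or 0.172 (0.124 to 0.234). Klf9 was 0.355 in the margin and 0.160 in the core, or 0.190 of far lung (0.126 to 0.274). The 3 genes were thus about equally reduced in the core, and Sgk1 the least in the margin. Zbtb16 had 2 counts in the margin and 0 in the core, where 3 counts, set as a floor, would make 0.0166 CP10k.

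The sizes depended on which spots were taken as core. With the tumour-list rule as first written, whose 94 spots shared 0 with the core used, the ratios to far lung were 3.12 for Fkbp5, 2.48 for Mt1, 5.99 for Mt2, 0.478 for Tsc22d3 and 0.451 for Klf9, and Sgk1, at 0.866, was no longer apart. With the 40 spots of highest tumour score they were 2.28 for Fkbp5, 3.96 for Mt1, 8.65 for Mt2, 0.367 for Tsc22d3, 0.406 for Sgk1 and 0.261 for Klf9. All 6 genes kept their direction under both. The 94 spots of the first rule were other spots, so their values are no check of the core used.

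**Figure D4:**
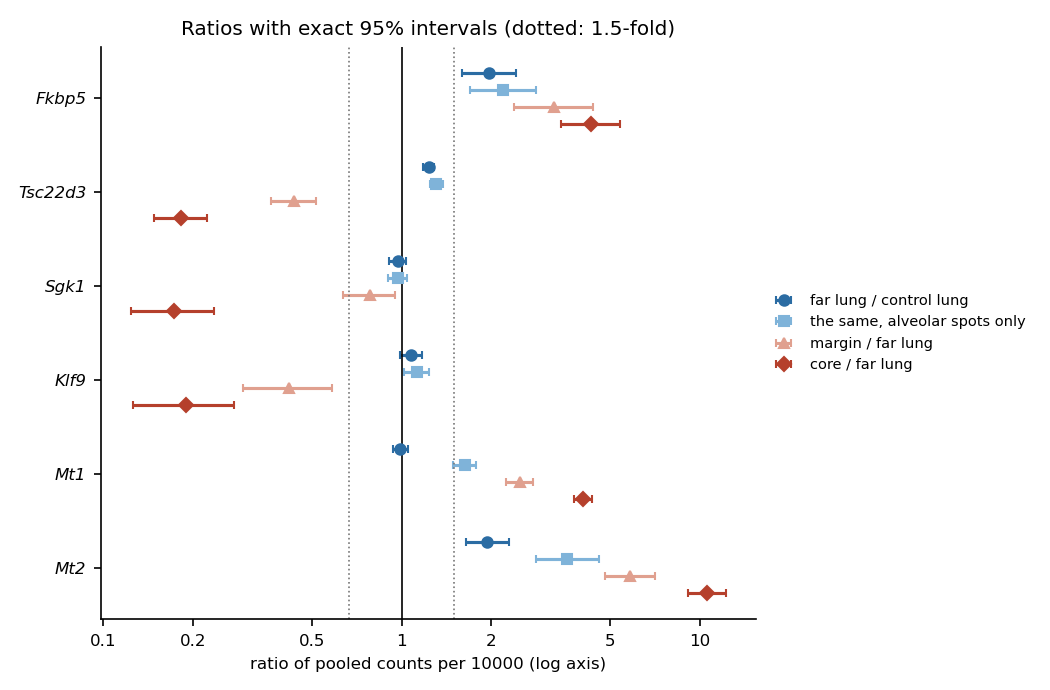
Ratio of pooled levels (x axis, log scale) of each gene in far over control lung, in alveolar spots, in margin over far lung and in core over far lung, with exact 95% intervals that cover counting error only. Fkbp5, Mt1 and Mt2 lie right of 1 in the core (4.30, 4.06 and 10.6) and Tsc22d3, Sgk1 and Klf9 left of it (0.182, 0.172 and 0.190).

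The same directions were present in counts per spot. Core spots had more counts (median 17585) than far spots (median 10788), and per spot the core held 13.1 counts of Mt1 but 1.01 of Tsc22d3, against 3.86 of Tsc22d3 in far lung. Sgk1 was 0.424 counts per core spot and 1.71 per far spot, and Klf9 0.293 and 1.08. All 3 were thus lower in core spots before any scaling.

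By distance, the metallothioneins declined over the first 300 µm. Mt1 measured 5.23 CP10k within 100 µm of the core, 3.35 from 100 to 200 µm and 2.17 from 200 to 300 µm, then 1.83 and 2.14 up to 500 µm and 1.76 from 500 to 700 µm. Mt2 measured 2.15, 1.03 and 0.542, then 0.519 and 0.493, and 0.240 from 500 to 700 µm. Mt2 therefore stayed above its far level to 500 µm, and the zone from 200 to 500 µm was 1.83-fold far lung (1.43 to 2.32). Fkbp5 measured 0.598, 0.569 and 0.232 over the first 3 rings. Tsc22d3 ran the other way, with 0.991, 1.75, 2.63, 3.17 and 3.83 up to 500 µm and 2.73 in the next ring.

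**Figure D5:**
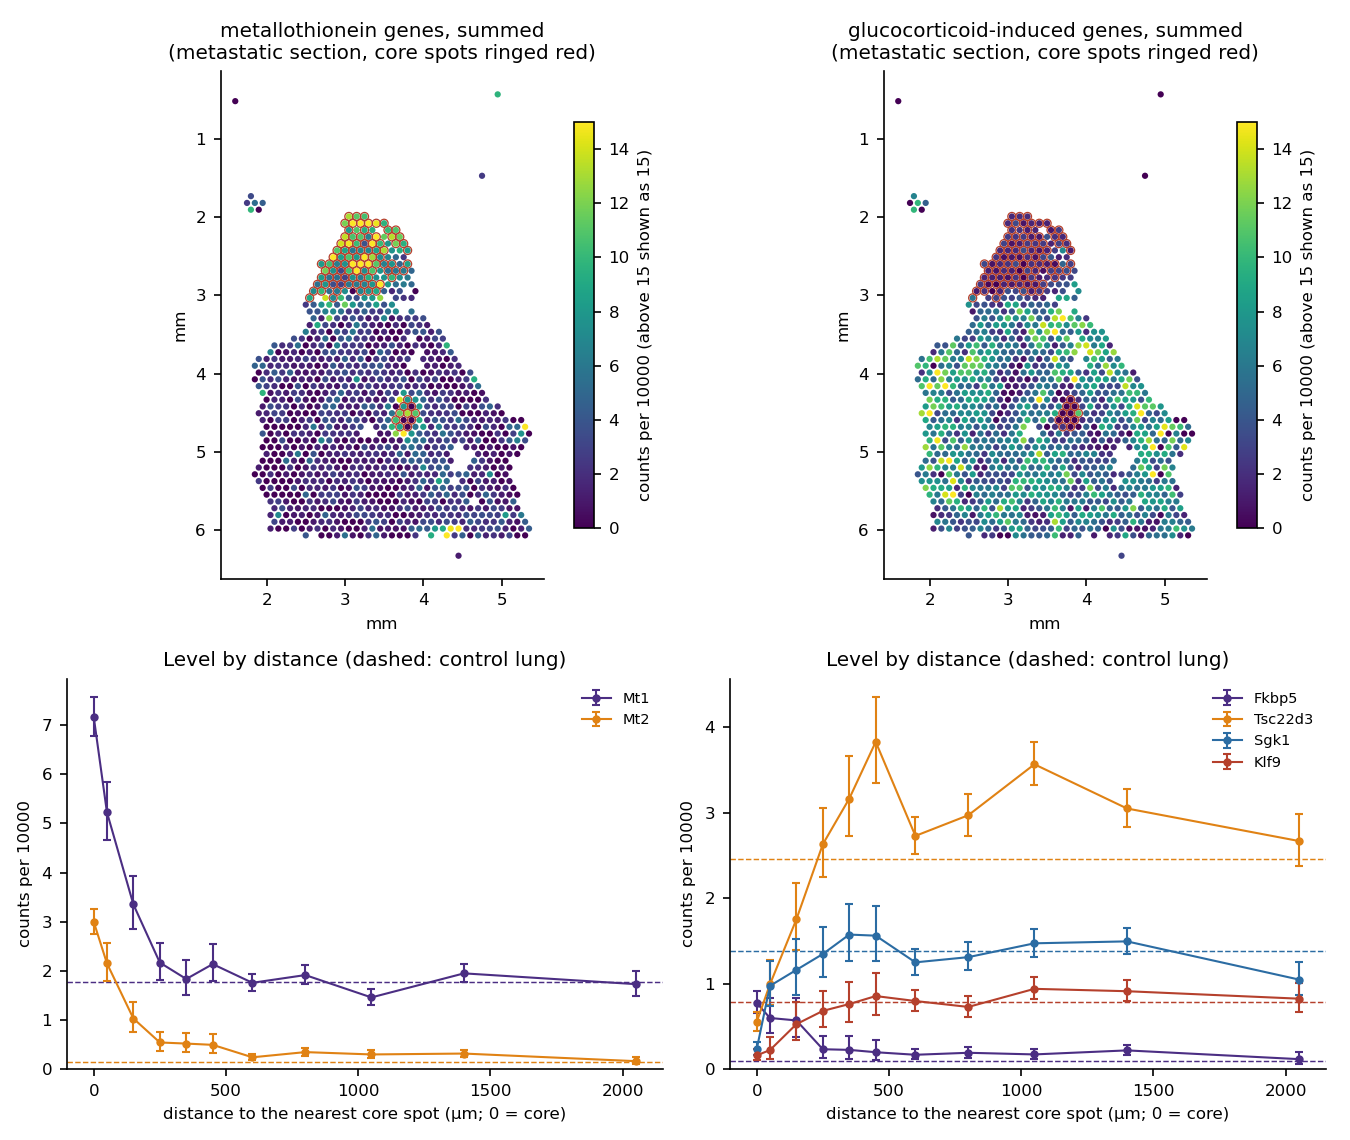
Upper maps show the spots of the metastatic section (axes in mm) coloured by summed metallothionein and summed glucocorticoid-induced counts per 10000, with core spots ringed in red; lower plots show the pooled level of 6 members by distance in µm to the nearest core spot (y axis, counts per 10000; rings of 38 to 215 spots, bars 95% Poisson intervals for counting error; dashed lines, control lung). Mt1 and Mt2 fell from 5.23 and 2.15 within 100 µm to 2.17 and 0.542 at 200 to 300 µm, while Tsc22d3 rose from 0.991 to 2.63.

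The core had 2 areas, of 89 and 10 spots, and the smaller was shallow (median 2192.5 counts per spot). In the smaller one Mt1 was 3.22-fold (16 counts) and Mt2 6.26-fold (5 counts) far lung, and Tsc22d3 had 1 count. Both areas lay on the same side of far lung for these genes. Within the core, interior spots did not differ from edge spots beyond counting error except for Sgk1, which was 0.418-fold (0.207 to 0.814, 15 against 27 counts).

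The cell type lists differed between these zones as well. Against far lung, the endothelial list measured 0.0514 in the core and 0.372 in the margin, the AT1 list 0.0770 and the AT2 list 0.154 in the core, and the neutrophil list 0.0960. The macrophage and monocyte list was 3.64-fold higher in the core and 3.7-fold in the margin. In the core, Tsc22d3, Sgk1 and Klf9 were low together with the endothelial and alveolar lists. Fkbp5, Mt1 and Mt2 were high there together with the macrophage list. In the margin, AT1 genes ran from 0.339 (Ager) to 0.609 (Pdpn) and AT2 genes from 0.605 (Sftpb) to 1.29 (Lamp3). Tsc22d3 (0.436) and Klf9 (0.420) were low in the margin, while Sgk1 stood at 0.783, against 0.372 for the endothelial list. Mt1 and Mt2 rose 1.63-fold and 1.81-fold from margin to core, and the macrophage list did not. The part of cell makeup was not tested.

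Further glucocorticoid targets were mostly lower in the core. Of 21 tested, 2 were higher and 12 lower than in far lung, against 34.6% and 26% of all genes, with a median ratio of 0.454 against 1.15 for all genes. Ddit4 (3.23) and Cdkn1a (2.73), which hypoxia and p53 also induce, were higher, and Klf15 (0.0215), Scnn1a (0.0572), Dusp1 (0.128) and Glul (0.227) were the lowest. Of the receptor pathway, Hsp90aa1 and Hsp90ab1 were both 2.12-fold higher, and Nr3c1 (0.491), the mineralocorticoid receptor Nr3c2 (0.246) and Hsd11b1 (0.0994) lower. Fkbp5 was high in the core, where its receptor and 12 of 21 other targets were low, and the cause was not tested.

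Of 16 metal handling genes tested in the core, 7 were higher and 3 lower, near the shares of 34.6% and 26% among all genes. Those farthest above far lung were the zinc importers Slc39a14 (4.48) and Slc39a10 (4.15), the zinc exporter Slc30a4 (3.29) and ferritin heavy chain Fth1 (2.42). Mtf1 was 1.71-fold higher. Slc30a1, the zinc exporter that MTF-1 drives along with Mt1 and Mt2, was lower (0.216), as were Slc40a1 (0.153) and Slc39a8 (0.321). In the margin 7 of 16 were higher and 2 lower, against 39.2% and 15.4% of all genes, among them Hmox1 (3.25), Slc39a14 (2.87) and Fth1 (2.53).

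Over 12 compartments of both sections, the genes most like each member in pooled level were found by Pearson's r of log2(CP10k + 0.1) among 8268 genes. For Fkbp5 they were Ccl9 (0.982), Sdf2l1 (0.977) and Zbp1 (0.975), and for Mt2 Ccl12 (0.947), Ccl2 (0.939) and Ccl7 (0.939). Mt1 had no close neighbour, with Bok (0.93), Lrig1 (0.897) and Abcc1 (0.868). For Tsc22d3 they were Prx (0.991), Calcrl and Prex2 (0.988 each), for Sgk1 Dll4 (0.990), Smad7 (0.988) and S1pr1 (0.987), and for Klf9 Prelp (0.994), Npr1 and Tns1 (0.989 each). Zbtb16, with 21 counts in all, followed Osmr (0.937), but so few counts give the likeness little weight. Neither metallothionein was among the 3 nearest of the other.

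Across single spots the correlations were weak. Mt1 and Mt2 correlated at 0.213 in control lung, 0.131 in far lung, 0.276 in the margin and 0.374 in the core, and Tsc22d3 and Sgk1 at 0.169 in control lung and 0.245 in far lung. Tsc22d3 and Mt1 ran opposite, at -0.197 in control lung and -0.137 in far lung. Spots share their library and total counts, so these values describe the sections only.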

How the data were processed

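Visium libraries of 1 control and 1 metastatic lung section were sequenced. The authors deposited filtered matrices of raw counts (unique molecules per gene and spot), made with Space Ranger 1.3.1 on mm10 per the submitters' processing notes; no per-sample column was left unused (0). Counts were pooled over spots and divided by their total, times 10000. Totals were dominated by a few genes such as Scgb1a1, so a library size without 423 abundant genes was an alternative. Ratios have exact binomial intervals of the split of counts (95%), and the pooling and intervals were tested on simulated data. All steps ran in Python 3.11.15, with scikit-learn 1.9.0 for clustering, scipy 1.17.1 for intervals, and pandas 2.3.3 and numpy 2.4.6 for the tables.

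Spots of the metastatic section were clustered (k-means, 5 clusters, 2000 variable genes without the members, 20 principal components). The core was to be the cluster highest on a list of 15 4T1 genes, but 7 of these are also lung epithelial genes and the rule took 94 spots led by Mmp12, Cxcl9 and Cxcl10. After marker values were seen, the core was set as the cluster highest on the other 8 genes, without groups of fewer than 5 touching spots. The cluster used was led by Saa3, Mmp3, Cd5l, Marco, Slpi, Fcna, Lgals1, S100a4, Arg1 and Myc, of which Marco is on the macrophage and monocyte list. The first rule was kept as an alternative. Distances came from array positions at 100 µm spacing. Structure classes needed a z-score over 1.5, and doublets have no meaning for spots. Members, lists and rules were chosen with earlier results of these data known. Named were all members, at most the 4 farthest genes per list and direction at 1.5-fold or more whose interval did not hold 1, Nr3c1 and Mtf1, and the 3 genes most like each member with at least 500 counts. The comparison of airway spots, the tertiles, the separate airways, the deeper control blocks and the counts per spot were added after the data were seen. Alternatives changed the library size, depth (5000 counts per spot), pooling, scaling, edge of far lung, core, class limit and count limit.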

Additional observations from a re-analysis of the deposited data

Results flagged for a closer look

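The metallothioneins differed in opposite directions between control and far lung in 2 tissue structures, and the difference between structures was not tested, since each lung was 1 section. Mt1 was 1.63-fold higher in alveolar spots of far lung and 0.578-fold in airway spots, each against the same structure of control lung. Mt2 was 3.59-fold higher in alveolar spots and 0.362-fold in airway spots. Summed, the pair was 1.80-fold higher in alveolar and 0.562-fold in airway spots. Without the largest control airway the airway ratios were 0.802 for Mt1 and 0.511 for Mt2, and with spots classed at z over 2 they were 0.476 and 0.895.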

How the results depend on the processing

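No paired analysis was possible because each condition had 1 section. The number of members at least 1.5-fold apart in the zone and alveolar comparisons stayed within 1.5 times its value under all alternatives, and in far over control lung it was 2 higher and 0 lower in each. The summed ratios moved beyond their counting intervals as follows, for far over control lung (hormone-induced, metallothionein) and core over far lung (hormone-induced, metallothionein). Without abundant genes in the library size they were 1.26, 1.17, 0.219 and 3.43, with spots thinned to 5000 counts 1.22, 1.14, 0.263 and 5.37, and divided by the median ratio of all genes 1.3, 1.21, 0.276 and 4.32. As a mean over spots, the metallothionein sum in far lung was 1.23 and the hormone-induced sum in the core 0.275. With the core as spots above the mean plus 2 SD of the tumour score, which shared 13 spots with the core used, the values were 1.28, 0.962 and, in the core, 0.427 for the hormone-induced sum. The following alternatives were chosen after seeing the data. The core rule as first written, which shared 0 spots with the core used, gave core ratios of 0.659 and 2.97, and the smaller area alone gave 0.196 and 3.64. Without the largest airway of control lung the far ratios were 1.06 and 1.27, and without that of far lung the hormone-induced ratio was 1.23. At a class limit of z over 2, the airway ratios of Tsc22d3 (0.537) and Sgk1 (0.448) turned direction, and without the largest control airway Mt2 alone of the 5 airway members was still apart, and the cause was not tested. The metallothionein sum in far lung was below 1 under the tumour score core only. Low counts limited Zbtb16 in every comparison and Fkbp5 and Mt2 in airway spots, where far lung held few counts of either.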

Other observations

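Other response genes were also counted in far over control lung, where 2.65% of all genes were at least 1.5-fold higher and 12.2% lower. Of 10 acute phase genes tested, 5 were at least 1.5-fold higher and 0 lower, led by Saa3 (22.7-fold), an inflammatory serum amyloid made in tissues, Socs3 (2.96), which restrains cytokine signalling, and Serpina3n (1.98). Of 6 heat shock genes, Hspa1b (2.13), Hspa1a (2.09) and Hsph1 (1.61) were higher and 0 lower. Among 10 immediate early genes, Junb was higher (2.47) and 3 were lower, with Egr1 at 0.566.

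The 21 mesothelial spots of far lung, at the lung surface by their markers, held 0.583 CP10k of Fkbp5, 0.875 of Mt2, 2.33 of Mt1 and 16.6 of Saa3, whereas far lung as a whole held 0.180, 0.283 and 1.76 of the 3 members. These spots held 171384 counts in all, so their Fkbp5 and Mt2 values rest on few counts. Saa3 was 0.164 in the 133 mesothelial spots of control lung. The members are set against far lung only here, so a trait of mesothelium and one of the metastatic section cannot be told apart.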
